A study of Mus musculus with 10 samples.

Results

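The comparison described here set the thymus of mice with a homozygous knockout of Usp7 against that of mice with a heterozygous knockout, a contrast in which the labelled difference was the second Usp7 allele. The groups were not matched for sex, since 1 homozygous KO library stood apart by its sex-linked genes (below). Its members were the libraries whose titles name a homozygous KO (n = 3) or a heterozygous KO (n = 3), 6 of the 10 libraries of the series, and each library came from 1 animal. All animals were C57BL/6J mice whose thymus was taken 3 days after birth, and in both groups the labels place the knockout in the hematopoietic system, on both alleles in one and on 1 allele in the other. The recombinase line that deleted the gene is not given in the sources used here. Stromal cells of the thymus are not hematopoietic and are not named as targets, but their RNA is part of the sample, since the whole organ was extracted. The 4 wild-type libraries, described in the series as 2 with cre and 2 without, entered no fit of the main comparison and are given as background levels.

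Counts per gene came from ribosome-depleted, strand-specific total RNA libraries and totalled 92.3 to 122 M in the homozygous group, 90.5 to 97.4 M in the heterozygous group and 39.8 to 86.4 M for wild-type animals. A level is given in CPM, counts relative to the library's scaled total. It allows a gene to be compared between libraries, not with another gene. A gene was called when its Benjamini-Hochberg adjusted p in edgeR's quasi-likelihood test was under 0.05 over all genes tested, and every log2 fold change is homozygous KO over heterozygous KO. Libraries of 1 group differed from each other by more than counting error in every pair, and p-values measure the spread between these animals.

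USP7, also called HAUSP, is a deubiquitinating enzyme: it removes ubiquitin from other proteins and so can keep them from being degraded. Its best known substrates are MDM2, the ubiquitin ligase that degrades p53, and p53 itself, and it also acts on MDM4, FOXP3, N-MYC, DNMT1, UHRF1 and TRIM27. The thymus is where progenitors from the bone marrow become T cells. They pass through a double-negative stage driven by Notch signals, expand, rearrange the T cell receptor alpha genes as double-positive cells that carry CD4 and CD8, and are then selected into single-positive cells that leave the organ. Thymic epithelium, dendritic cells, macrophages and B cells in the organ take part in this selection.

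Usp7, on chromosome 16, was at 303, 422 and 408 CPM in the 3 homozygous animals and at 472, 516 and 516 CPM in the 3 heterozygous ones. Wild type had 589 to 676 CPM. The groups did not overlap, and each homozygous library lay below each heterozygous one, so the counts followed the labels. The homozygous mean of 377 ± 65.1 CPM (SD, n = 3) was 75.3% of the heterozygous mean of 501 ± 25.4 CPM (SD, n = 3), and 59.7% of the wild-type mean. Usp7 reads were thus fewer and not absent in the homozygous KO thymus. The log2 fold change was -0.42 (SE 0.12) and missed the threshold in edgeR, with an adjusted p of 0.061. Permuting the log2 CPM exactly (two-sided) gave p = 0.1, the smallest value that 3 against 3 libraries allow. In bulk RNA, fewer cells that transcribe a gene and less RNA per cell cannot be told apart, here or in any result below. Of the 86 tested genes within 5 Mb of Usp7, 7 were called (8.14%, against 13.5% of all genes tested).

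Loss of the second allele went with a broad change. Of 18858 genes tested, 2553 were called (13.5%), 1006 higher (5.33%) and 1547 lower (8.2%) in homozygous KO. The changes were larger downward: 972 of the lower genes fell more than 2-fold (5.15% of all genes tested) and 359 of the higher genes rose more than 2-fold (1.9%), and the median log2 fold change was -1.32 among the lower calls and 0.62 among the higher ones. The groups did not overlap at 6320 genes (33.5% of those tested), among them 1002 of the 1006 higher and all 1547 lower calls. Called genes lay on every autosome and on X. Protein-coding genes were called in 16% of cases, long non-coding genes in 6.02%, and segments of the antigen receptor genes in 34.3%, 11 higher and 38 lower of 143.

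**Figure D1:**
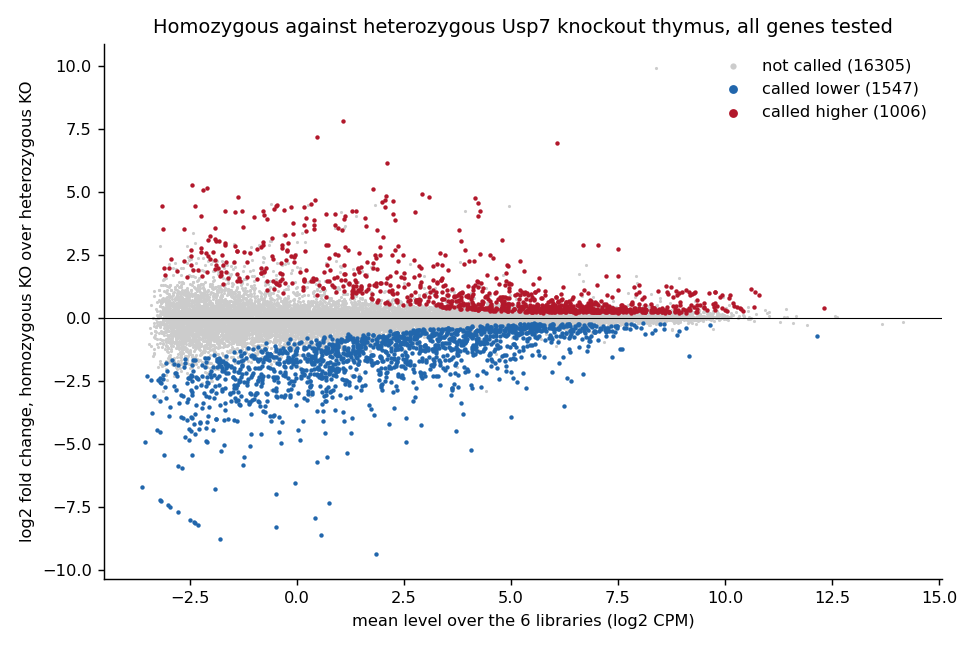
Each point is 1 of the 18858 genes tested, with its mean level over the 6 libraries (log2 CPM, horizontal axis) and its log2 fold change as fitted, homozygous KO over heterozygous KO (vertical axis). The 1547 blue points (called lower) have a median of -1.32 and the 1006 red points (called higher) a median of 0.62, and most of the red points at high levels lie close to 0.

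The extent rested on the heterozygous libraries more than on the homozygous ones. Without heterozygous KO replicate 1, 2 or 3 the number of calls was 1685, 1352 and 1143, and without homozygous KO replicate 1, 2 or 3 it was 2972, 2047 and 1765. Homozygous KO replicate 3 was the one library of the 6 with Xist at 2040 CPM and Ddx3y at 0.0333 CPM. The other 5 had Xist at 1.12 CPM or less and Ddx3y at 70.4 CPM or more, so sex was not balanced, and without genes of chromosomes X and Y the count was 2501. The animal numbers of the titles were split here into 2 runs, and the labels name no such runs. They were 44 to 51 (replicate 1 of each group) and 56 to 63 (replicates 2 and 3). In the run from 56 to 63 alone, 3191 genes were called (16.8% of those tested there), and 2918 of them (91.4%) had the same sign in the difference between the pair of libraries of the other run: 1204 of 1368 higher calls and 1714 of 1823 lower calls. Across all genes tested, 50.4% of these differences were below 0.

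Most targets of p53 rose. The p53 target list holds genes that p53 is known to switch on after stress or DNA damage, and 15 of its 19 tested members were called higher and none lower, with a median log2 fold change of 0.98 against 0 over all genes. In every leave-one-out fit at least 12 were called higher. The remaining 4, Sesn1, Perp, Tnfrsf10b and Plk2, had log2 fold changes of 0.09 to 0.58. The summed level of the list was 1950, 2360 and 2040 CPM in homozygous KO, 1170 to 1270 CPM in heterozygous KO and 1200 to 1370 CPM in wild type.

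Zmat3, which encodes an RNA-binding protein under direct control of p53, had 200, 271 and 239 CPM in homozygous KO against 32.1, 30.2 and 31.8 CPM in heterozygous KO, and 23.7 to 28.6 CPM in wild type. No homozygous library came near the heterozygous range (log2 fold change 2.91, SE 0.11, edgeR adjusted p 2.6e-05). Cdkn1a, the cyclin-dependent kinase inhibitor p21 that halts the cell cycle, had 46, 42.1 and 33.5 CPM against 6.72, 7.45 and 9.20 CPM (log2 fold change 2.37, SE 0.16, edgeR adjusted p 0.00021). Phlda3, an inhibitor of AKT, had 20.1, 31.1 and 26 CPM against 3.02, 2.71 and 3.59 CPM (log2 fold change 3.04, edgeR adjusted p 0.00017). In these 3 genes the groups were far apart, and no wild-type library exceeded the highest heterozygous one. Eda2r, a death receptor of the TNF receptor family, had 4.37, 4.79 and 3.48 CPM in homozygous KO and at most 3 counts in any heterozygous library, which makes it at least 134-fold higher.

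Genes of cell death were among them. Pmaip1 (NOXA) and Bbc3 (PUMA) encode BH3-only proteins that start apoptosis at the mitochondrion, and Bax forms the pore there. Pmaip1 had 46.5, 54.1 and 46.6 CPM against 8.36, 14.1 and 12.1 CPM (log2 fold change 2.08, edgeR adjusted p 0.00063), and Bax had 61.8, 75.6 and 64.4 CPM against 23.7, 26.1 and 28.4 CPM (log2 fold change 1.36, edgeR adjusted p 0.00032). Bbc3 was more variable, with 35.9, 85.1 and 67.8 CPM against 13, 19.4 and 18.4 CPM (log2 fold change 1.88, edgeR adjusted p 0.0065). Homozygous KO replicate 1 was the lowest of its group for all 3 genes and still lay above every heterozygous library. Ccng1, Polk, Aen, Ei24 and Sesn2 rose by 1.32, 0.98, 1.04, 0.83 and 0.87 on the log2 scale. Mdm2, both a p53 target and the ligase that limits p53, had 140, 150 and 150 CPM against 113, 122 and 122 CPM, a smaller rise of 0.29 (SE 0.06, edgeR adjusted p 0.019). Its call was lost without homozygous KO replicate 3 (edgeR adjusted p 0.0585), heterozygous KO replicate 2 (0.056) or heterozygous KO replicate 3 (0.0691).

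**Figure D2:**
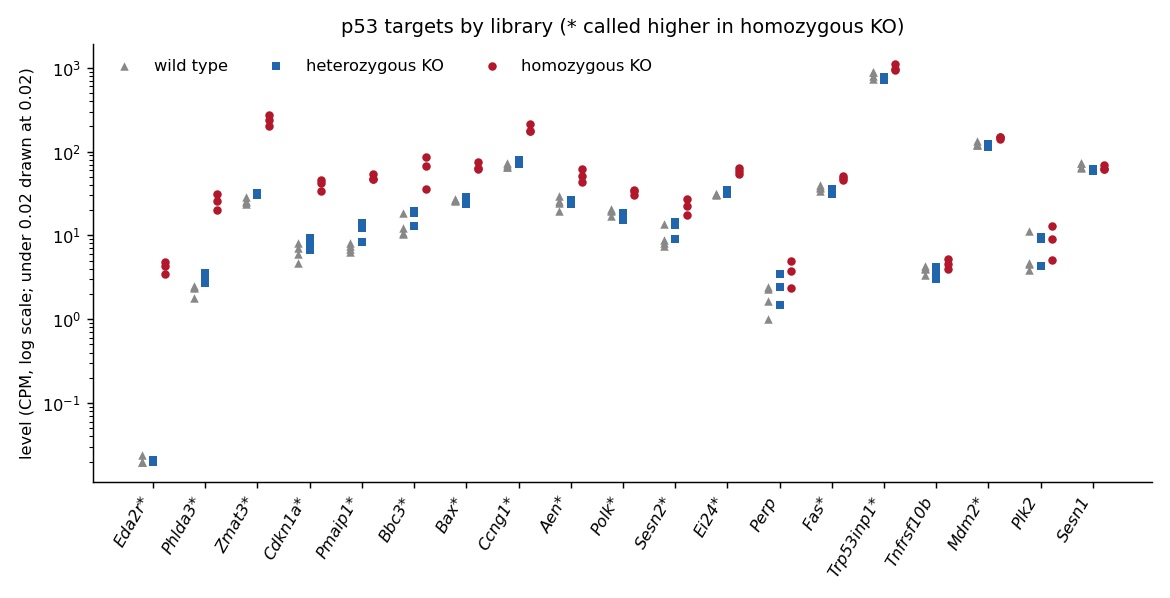
The level (CPM, log axis) of the 19 tested p53 targets in each library, ordered by log2 fold change from left to right, with homozygous KO as circles, heterozygous KO as squares and wild type as triangles. The 15 genes with an asterisk were called higher in homozygous KO, and for Eda2r, Phlda3, Zmat3, Cdkn1a and Pmaip1 the homozygous points stand clear of the other 7 libraries.

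To show what lies in front of one of these genes, 250 bases of Cdkn1a are printed from RefSeq (GRCm38.p6, chr17:29090729-29090978, plus strand, 5′ to 3′). They lie before the first start listed for the gene. The match to a p53 element, a pair of p53 half-sites that may lie apart, is in capitals. The counts were made on an older build, so these coordinates serve the sequence alone.
Cdkn1a: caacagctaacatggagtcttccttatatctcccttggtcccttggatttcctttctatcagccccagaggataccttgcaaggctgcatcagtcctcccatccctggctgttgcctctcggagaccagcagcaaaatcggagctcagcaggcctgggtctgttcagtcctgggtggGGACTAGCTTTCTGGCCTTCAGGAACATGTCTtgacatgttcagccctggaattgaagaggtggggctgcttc
The match ran from 73 to 42 bases before that start, and any other start of the gene was not searched. It pairs GGACTAGCTT with GAACATGTCT, which are not adjacent. The bases tgacatgttc right after the match do not meet the searched half-site in full, so they stayed in lower case. An element of this form was found in 4 of the 11764 such windows of tested genes (0.034%), and in 1 of the 14 windows of p53 targets, that of Cdkn1a. p53 is known to act from sites outside such windows too, and no match says only that these letters were not there.

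Among apoptosis regulators outside that list, 4 of 14 tested members were called higher and 2 lower, with a median of 0.09. Over all genes tested, 5.33% were called higher and 8.2% lower. Apaf1, the scaffold of the caspase-activating apoptosome, had 182, 175 and 177 CPM against 129, 119 and 119 CPM (log2 fold change 0.54, SE 0.06, edgeR adjusted p 0.0012). Bid, a BH3-only protein cleaved by caspase-8, rose by 0.51, Bcl2l11 (BIM), which kills thymocytes in negative selection, by 0.45, and the survival gene Bcl2l1 (BCL-XL) by 0.32. Bmf, another BH3-only gene, moved the other way, from 132, 132 and 139 CPM in heterozygous KO to 60.1, 65 and 57.9 CPM in homozygous KO (log2 fold change -1.15, SE 0.06, edgeR adjusted p 0.00013). Bcl2l2 (BCL-W), which overlaps another annotated gene on the same strand, fell by 1.11. Without heterozygous KO replicate 3 the higher calls were 2, and without any 1 heterozygous library there was 1 lower call.

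Of the genes for USP7's own substrates and partners, 4 of 19 were called higher (against 5.33% of all genes) and 1 lower, with a median of 0.21, and the groups did not overlap at 14 (against 33.5% of all genes). The summed level was 6480 to 6690 CPM in homozygous KO, of which Notch1 gave 1750 to 2770 CPM, and 4640 to 4820 CPM in heterozygous KO, of which Notch1 gave 1090 to 1170 CPM. Trp53 itself had 185, 180 and 162 CPM against 159, 160 and 159 CPM (log2 fold change 0.14, edgeR adjusted p 0.23). Mycn, the transcription factor N-MYC, had 16.2, 19.1 and 20.1 CPM against 8.78, 9.93 and 9.54 CPM (log2 fold change 0.96, SE 0.11, edgeR adjusted p 0.0018), and every homozygous library was above every heterozygous one. Foxp3, the master factor of regulatory T cells, had 2.15, 1.16 and 1.51 CPM against 5.61, 4.30 and 4.61 CPM (log2 fold change -1.59, SE 0.26, edgeR adjusted p 0.0067). It shares exonic sequence with other annotated genes on both strands, so its count is uncertain to that extent. The others called higher were Notch1, described below, Mdm2 and Mdm4 (0.24). The higher calls were 2 without homozygous KO replicate 3, heterozygous KO replicate 2 or heterozygous KO replicate 3.

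Across the whole table, the genes named first were those with the largest changes among genes averaging 2 or more in log2 CPM, without overlap between the groups. Among the 12 largest rises, 6 were genes of neutrophil granules, described with the blood cells below. The others were Gnai1, Nlrp6, Dnm3, Lin28b, Olfm4 and Igf2. Gnai1, an inhibitory G protein subunit, had 7.09, 15.5 and 22.1 CPM in homozygous KO and 0.330, 0.869 and 0.261 CPM in heterozygous KO (log2 fold change 4.92, SE 0.58, edgeR adjusted p 0.0018). Dnm3, a dynamin of membrane traffic, had 5.88, 9.17 and 8.89 CPM against 0.560, 0.188 and 0.381 CPM (log2 fold change 4.39, edgeR adjusted p 0.00061). Both were near 0 outside the homozygous libraries, with 0.123 to 0.484 CPM of Gnai1 and 0.180 to 0.393 CPM of Dnm3 in wild type. Lin28b, the RNA-binding protein that blocks let-7 microRNAs and marks fetal lymphopoiesis, had 20.5, 9.58 and 8.88 CPM against 1.02, 0.387 and 0.686 CPM (log2 fold change 4.21, edgeR adjusted p 0.0013). It was the exception among the largest rises in that homozygous KO replicate 1 was the highest of its group, where that library was the lowest for the other 11.

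Among the 12 largest falls, H1fx, a replication-independent linker histone, had 0.833, 0.567 and 1.25 CPM in homozygous KO and 37.6, 32 and 29.2 CPM in heterozygous KO (log2 fold change -5.23, SE 0.27, edgeR adjusted p 0.00012). It overlaps other annotated genes on either strand, so its count is uncertain to that extent. Ccl22, a chemokine that mature dendritic cells make and that draws thymocytes, had 1.60, 0.743 and 0.998 CPM against 21.5, 28.7 and 25.6 CPM (log2 fold change -4.50, edgeR adjusted p 0.00018). Arl5c, a small GTPase of the ARF family, went from 129, 137 and 156 CPM to 12.7, 11.5 and 13.2 CPM (log2 fold change -3.50, SE 0.10, edgeR adjusted p 7.6e-06). For these 3 genes the wild-type libraries lay with the heterozygous ones, at 16.4 to 31.5, 15.6 to 27.7 and 161 to 189 CPM. Ly6d, a surface marker of lymphoid progenitors committed to the B lineage, fell by 3.93 on the log2 scale and Aim2, a sensor of cytosolic DNA, by 3.59. The remaining ones were Scara3 (-4.92), Chl1 (-4.25), Peli2 (-4.20), Ncs1 (-3.95), Tdrp (-3.81), Unc5cl (-3.37) and Rps4l (-3.31).

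**Figure D3:**
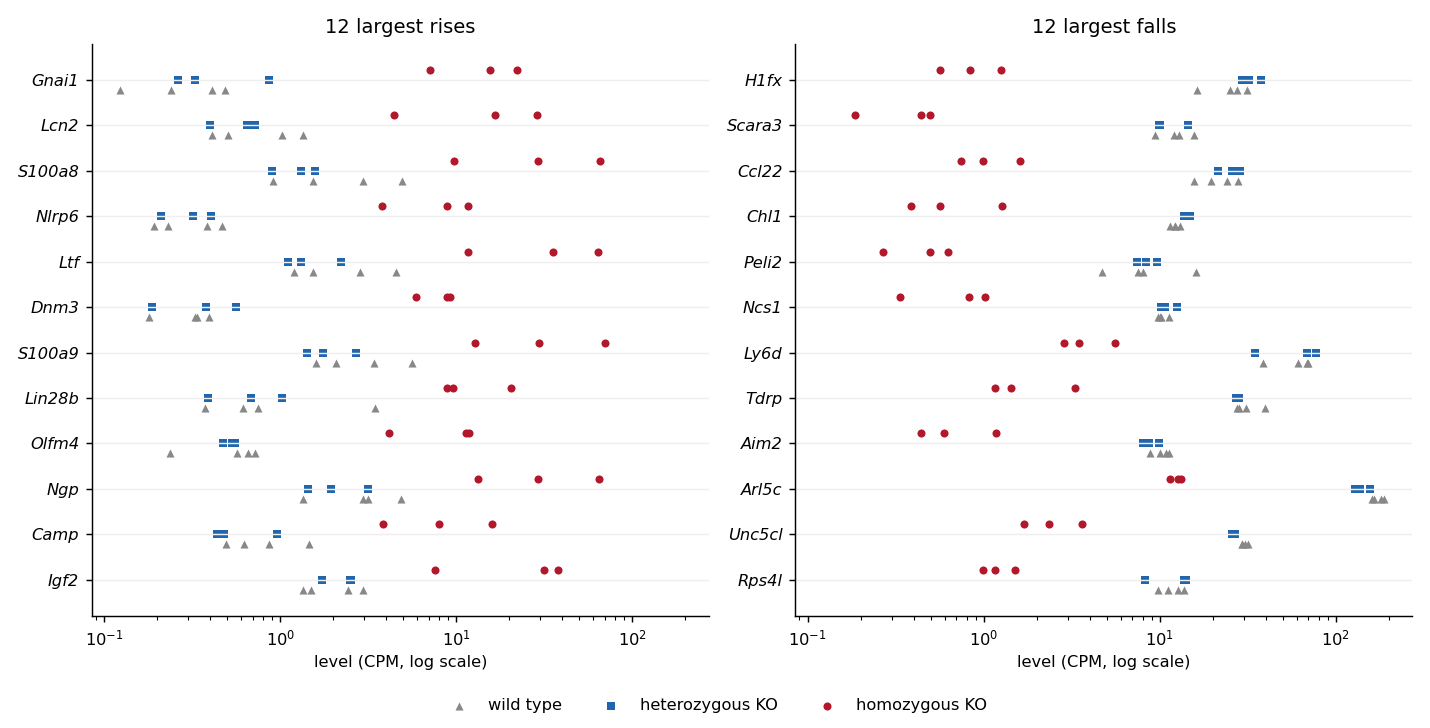
Level (CPM, log axis) of the 12 largest rises (left) and the 12 largest falls (right) in every library, with homozygous KO as circles, heterozygous KO as squares and wild type as triangles. The homozygous circles stand apart from the squares in every row, since no overlap was part of the rule, and the triangles lie near the squares. Neutrophil genes are spread over the homozygous libraries, for instance S100a8 at 9.73, 65.6 and 29 CPM.

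The genes with the smallest p-values had tight replicates. Myh10, the non-muscle myosin heavy chain IIB, had 191, 185 and 176 CPM in homozygous KO against 26.7, 23.8 and 23.4 CPM in heterozygous KO (log2 fold change 2.89, SE 0.07, edgeR adjusted p 5.3e-06). Ccdc141, a coiled-coil gene, had 35.4, 42.1 and 40.7 CPM against 6.59, 6.56 and 7.49 CPM, and Psrc1, which encodes a spindle protein and is a p53-responsive gene, had 46.2, 44.8 and 45.3 CPM against 17.6, 18.5 and 17 CPM (log2 fold changes 2.51 and 1.35, edgeR adjusted p 3.1e-05 and 0.00012). Bach2, a transcriptional repressor of lymphocytes, moved downward, with 8.44, 9.09 and 7.86 CPM against 43, 47.4 and 44.9 CPM (log2 fold change -2.42, SE 0.09, edgeR adjusted p 2.6e-05). Wdfy4, needed by dendritic cells for cross-presentation, had 11.3, 10.7 and 9.18 CPM against 63.3, 57.7 and 61.3 CPM (log2 fold change -2.56, edgeR adjusted p 2.6e-05). Bach2, like Dnm3 and Cdkn1a above, overlaps an annotated gene on the other strand. In each of these 5 genes the wild-type libraries lay near the heterozygous ones, for Myh10 at 20 to 32.4 CPM and for Bach2 at 44.8 to 54.1 CPM.

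**Figure D4:**
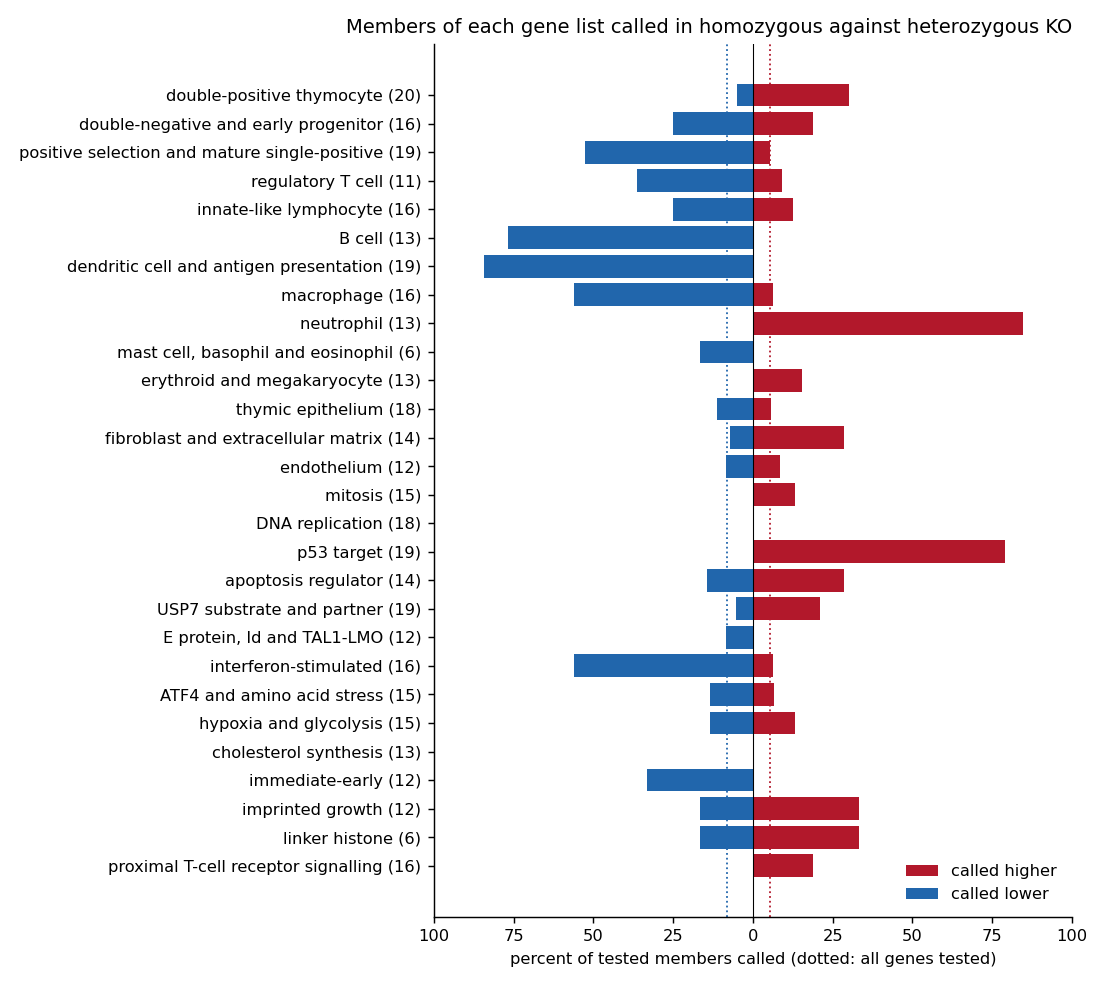
For each of the 28 gene lists (number of tested members in brackets), the percent of members called higher (right) or lower (left) in homozygous against heterozygous KO. The dotted lines mark the same percent over all genes tested, 5.33 and 8.2. Neutrophil and p53 target members extend farthest to the right, and dendritic cell and B cell members farthest to the left.

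The sample was a thymus by its markers in all 6 libraries: the summed level of 20 genes of double-positive thymocytes was 19600, 20100 and 19600 CPM in homozygous KO and 21100, 20900 and 21800 CPM in heterozygous KO. Of these genes, 6 were called higher (5.33% over all genes tested) and 1 lower (8.2%), and the median log2 fold change was 0.04. Rag1, 1 of the 2 subunits of the recombinase that cuts antigen receptor genes, was the one that fell, from 5560, 5580 and 6010 CPM to 3330, 3510 and 3640 CPM (log2 fold change -0.72, SE 0.07, edgeR adjusted p 0.0007), and its exons overlap those of another annotated gene. Rag2, its partner, had 122, 71.4 and 84.1 CPM against 124, 91.4 and 106 CPM (log2 fold change -0.21, edgeR adjusted p 0.55). Cd8a rose by 0.35 and Thy1 by 0.39, with edgeR adjusted p 0.0096 and 0.01, and Cd24a, Arpp21 and Aqp11 by 0.25 to 0.40. Cd4 had 696, 766 and 748 CPM against 564, 631 and 644 CPM and an edgeR adjusted p of 0.06. The 6 higher calls were 3 without homozygous KO replicate 2, 1 without heterozygous KO replicate 2 and 2 without heterozygous KO replicate 3.

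Among genes of the earlier stage, Notch1, Notch3 and Dtx1 rose and Mef2c, Bcl11a, Cd44 and Kit fell. Notch1, the receptor that commits progenitors to the T lineage, had 1750, 2770 and 2340 CPM in homozygous KO and 1170, 1110 and 1090 CPM in heterozygous KO (log2 fold change 1.02, SE 0.15, edgeR adjusted p 0.0042). Notch3 had 385, 715 and 607 CPM against 226, 229 and 242 CPM (log2 fold change 1.28, edgeR adjusted p 0.0051), and Dtx1, a Notch target, 106, 368 and 215 CPM against 70.1, 60.6 and 83.8 CPM (log2 fold change 1.67, edgeR adjusted p 0.027). In all 3 genes replicate 1 was the lowest and replicate 2 the highest of the homozygous libraries. The same order held for Il2ra (CD25), at 68.5, 289 and 162 CPM against 184, 130 and 177 CPM, where the groups overlapped (log2 fold change 0.07, edgeR adjusted p 0.94). Other Notch targets were not called: Hes1 had a log2 fold change of -0.88 (edgeR adjusted p 0.43), Nrarp 0.20 (0.42) and Ptcra 0.03 (0.92).

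Mef2c, a factor of myeloid and B cell potential, had 0.364, 0.528 and 0.421 CPM against 3.96, 4.10 and 3.88 CPM (log2 fold change -3.19, SE 0.22, edgeR adjusted p 0.00021). Bcl11a, needed for B cell development, fell by 2.50, Cd44 by 1.22 and Kit, the stem cell factor receptor, by 0.71. In all, 3 of the 16 tested genes of this stage were called higher and 4 lower, with a median of 0.05 and 9 of the 16 above 0. The shares over all genes tested were 5.33% higher and 8.2% lower. Other progenitor genes were not called in either direction, with log2 fold changes of 0.68 for Lyl1, 0.50 for Meis1, 0.30 for Cd34, -0.48 for Hhex and -0.85 for Spi1. The call of Dtx1 did not hold when homozygous KO replicate 3 was absent (edgeR adjusted p 0.0658), nor when any heterozygous library was (0.0998, 0.0986 and 0.0768 for replicates 1, 2 and 3). Several of these progenitor genes are also active in B cells and dendritic cells, whose markers were lower in the same libraries, and their part in these falls was not tested.

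Genes of positive selection and of mature single-positive cells were lower. Of 19 tested, 10 were called lower and 1 higher, with a median log2 fold change of -1.10, and without heterozygous KO replicate 3 there were 6 lower calls. Itm2a, induced when a thymocyte is selected, had 31.2, 23.3 and 22.6 CPM in homozygous KO and 120, 139 and 146 CPM in heterozygous KO (log2 fold change -2.4, SE 0.15, edgeR adjusted p 0.00017). Zbtb7b (ThPOK), the factor of the CD4 lineage, had 6.09, 2.31 and 1.16 CPM against 21.9, 21.8 and 22.1 CPM (log2 fold change -2.78, edgeR adjusted p 0.012). Runx3, its counterpart in the CD8 lineage, was the one gene that rose, with 50.4, 62.2 and 56.6 CPM against 42.1, 39.5 and 39.9 CPM (log2 fold change 0.47, edgeR adjusted p 0.0097). The rise did not hold without heterozygous KO replicate 3 (edgeR adjusted p 0.0537).

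The genes of exit from the thymus followed. S1pr1, the receptor that leads mature cells out, had 10.5, 4.13 and 3.76 CPM against 20.2, 29.7 and 28.6 CPM, and Klf2, which controls it, had 15.7, 10.2 and 8.20 CPM against 29.8, 39.6 and 36.7 CPM (log2 fold changes -2.10 and -1.64, edgeR adjusted p 0.013 and 0.0041). Il7r fell by 1.67, Cd69 by 1.39 and Cd5 by 0.72. Ccr7, which guides selected cells to the medulla, had 13, 1.35 and 1.14 CPM against 33.3, 43.1 and 38.3 CPM and missed the threshold (log2 fold change -2.88, edgeR adjusted p 0.066). Homozygous KO replicate 1 was the highest of its group for S1pr1, Klf2, Zbtb7b, Ms4a4b and Ccr7, and its levels were still below every heterozygous library. The call of Cd69 was lost without homozygous KO replicate 3 (edgeR adjusted p 0.0651), heterozygous KO replicate 2 (0.061) or heterozygous KO replicate 3 (0.0683).

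The signalling genes upstream of selection were not lower. Of 16 genes of proximal T cell receptor signalling, 3 were called higher and none lower, with a median of 0.07. Over all genes tested the shares were 5.33% higher and 8.2% lower. The adaptor Lat rose by 0.51 (edgeR adjusted p 0.013), and the kinase Lck and the adaptor Fyb by 0.26 and 0.30. The 3 calls were 1 without homozygous KO replicate 2 or 3 or without heterozygous KO replicate 2 or 3. The CD3 chains Cd3d, Cd3e, Cd3g and Cd247 had log2 fold changes of -0.14 to 0.08, and none was called. Among 12 immediate-early genes, which are induced within minutes of a signal, 4 were called lower and none higher, and the median was -1. In the animals numbered 56 to 63 alone 10 were called lower, and with the run of animal numbers as a term 9. Egr1 had 26.7, 29.5 and 24.1 CPM against 59.3, 54.8 and 57.9 CPM (log2 fold change -1.11, SE 0.08, edgeR adjusted p 0.00033), and Egr2, which follows receptor signals in selection, had 3.43, 2.71 and 2.14 CPM against 11.2, 8.52 and 8.76 CPM (log2 fold change -1.78, edgeR adjusted p 0.0017). Fosb and Egr3 fell by 2.30 and 2.07. Fos, Jun and Junb were lowest in replicate 1 of each group, Jun at 23.1, 70.9 and 53.1 CPM against 48.7, 115 and 106 CPM, and were not called over all 6 libraries.

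Regulatory T cell genes were called in both directions and leaned downward, with a median of -0.27 and 3 of 11 above 0. Foxp3, given above, Tnfrsf4 (OX40), Tnfrsf18 (GITR) and Capg were called lower, 4 of 11, and Ctla4 higher. Tnfrsf4 had 3.76, 3.34 and 3.77 CPM against 9.62, 10.3 and 8.33 CPM (log2 fold change -1.38, edgeR adjusted p 0.00091). Ctla4, an inhibitory receptor, had 14.6, 41 and 31.6 CPM against 8.81, 12.2 and 12.1 CPM (log2 fold change 1.39, edgeR adjusted p 0.033), a call that was lost without any 1 library except homozygous KO replicate 1 (edgeR adjusted p 0.0786 to 0.12). The lower calls were 2 without heterozygous KO replicate 2 or 3. Innate-like lymphocyte genes were also called both ways, 4 of 16 lower and 2 higher, and leaned downward, with a median of -0.53 and 4 above 0. Of all genes tested, 8.2% were called lower and 5.33% higher. The chemokine Ccl5 had 0.642, 0.958 and 0.720 CPM against 5.28, 4.98 and 4.79 CPM (log2 fold change -2.70, edgeR adjusted p 0.00034), and Gzmb, the protease granzyme B, had 14.1, 46.5 and 19.4 CPM against 3.94, 2.99 and 5.29 CPM (log2 fold change 2.70, edgeR adjusted p 0.0076). Without heterozygous KO replicate 3 the lower calls were 2, and without heterozygous KO replicate 2 there was 1 higher call. Zbtb16 (PLZF), the factor of innate-like T cells, had 1.38, 0.910 and 0.321 CPM against 2.62, 1.95 and 2.52 CPM and was not called (edgeR adjusted p 0.084).

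The T cell receptor alpha locus showed an ordered change along its length. These segments were singled out after their values were seen, so they are described with no test of the pattern. The locus on chromosome 14 carries many V segments, then J segments numbered downward, so that Traj61 lies nearest the V segments and Traj1 farthest. A double-positive thymocyte is known to join near V and J segments first and to replace them by more distant ones if it lives long enough. The J segments were split by their annotated order into 3 stretches of nearly equal number. In the stretch nearest the V segments (Traj61 to Traj41) all 20 log2 fold changes were above 0, with a median of 0.20. In the middle stretch all 19 were below 0 (median -0.37), and in the farthest stretch (Traj21 to Traj1) all 20 were below 0, with a median of -1.21. The 10 J segments that were called, all lower, lay in this last stretch.

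As a share of all J segment counts, the farthest stretch made up 18.7%, 23.9% and 22.1% in the homozygous KO libraries and 37.5%, 36.8% and 36.3% in the heterozygous ones. Wild type had 37 to 40.5%. The nearest stretch made up 48.8%, 37.9% and 40.7% among homozygous libraries, 25%, 28.9% and 27.5% among heterozygous ones and 22.9 to 25.4% in wild type. Both shares placed the 3 homozygous libraries outside the range of the other 7. A change common to all J segments leaves the share as it is, whereas the summed J level varied within a group (214, 108 and 137 CPM in heterozygous KO). Changes in transcription that differ along the locus would alter the share, and their part was not tested. The call of single J segments was less stable: 5, 3 and 4 were lower without homozygous KO replicate 1, 2 or 3, and 2 and 1 without heterozygous KO replicate 1 or 3. DESeq2 called 23 lower and the fit over all 10 libraries 21, and in the animals numbered 56 to 63 alone 4 were lower and 2 higher. Traj5 had 0.451, 0.606 and 0.610 CPM in homozygous KO and 2.49, 1.17 and 1.74 CPM in heterozygous KO, and all 3 homozygous libraries were below the heterozygous ones.

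The V segments mirrored this. In the stretch of the locus farthest from the J segments all 10 V segments had a log2 fold change below 0, and 8 were called lower. The median there was -3.44, or -3.45 with segments at the floor set to their bound. In the middle stretch all 11 were below 0, 9 were called lower and the median was -1.82. In the stretch nearest the J segments 1 of 10 was called higher and 1 lower, with a median of -0.20. The farthest stretch made up 2.66%, 1.54% and 1.25% of V segment counts in homozygous libraries, 7.77%, 8.68% and 7.35% in heterozygous ones and 6.11 to 9.68% in wild type, and the nearest stretch 81%, 80.5% and 84.6% against 47.8%, 55.2% and 54.2%, with 48.9 to 56.4% in wild type. Trav1, the first of the locus, had at most 3 counts in each homozygous library and was at least 11.5-fold lower, whereas Trav18, near the J segments, had 3.07, 3.78 and 2.64 CPM against 1.88, 1.82 and 1.52 CPM (log2 fold change 0.85, edgeR adjusted p 0.033). Without homozygous KO replicate 2 or any 1 heterozygous library no V segment was called higher. Spearman's rho between the order of a segment and its log2 fold change was 0.86 over the 31 V and -0.96 over the 59 J segments, which share the libraries and are not independent. Counts of near-identical V copies are uncertain, since reads can be split among them.

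**Figure D5:**
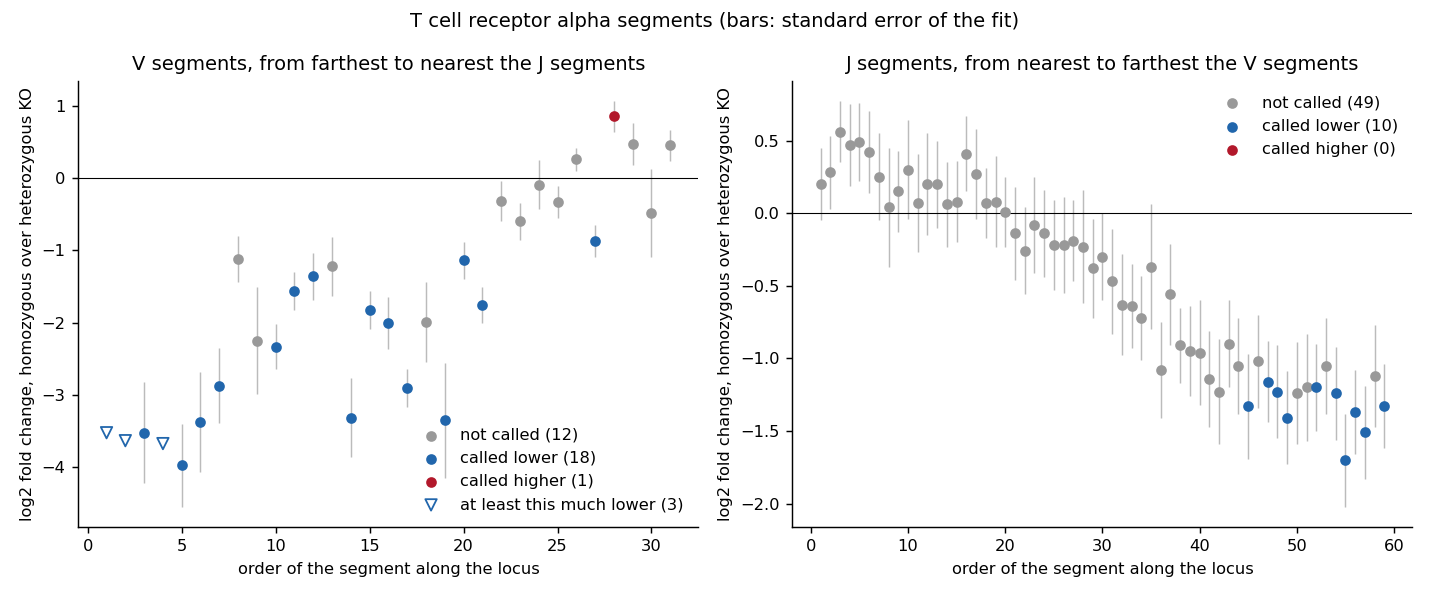
The log2 fold change, homozygous KO over heterozygous KO, of each T cell receptor alpha V segment (left) and J segment (right) in its annotated order along the locus, with the standard error of the fit as bars. Open triangles are the 3 V segments with at most 3 counts in each homozygous library, drawn at the bound. V segments climb from a median of -3.44 in the stretch far from the J segments to -0.20 in the stretch near them, and J segments descend from 0.20 near the V segments to -1.21 far from them.

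The receptor constant gene Trac had 85.8, 121 and 106 CPM in homozygous KO against 137, 153 and 160 CPM (log2 fold change -0.54, SE 0.12, edgeR adjusted p 0.026). The beta V segments showed no common direction, with 2 of 19 called higher and 3 lower (5.33% and 8.2% over all genes tested) and a median of -0.07. Their lower calls were 1 without heterozygous KO replicate 2 and 0 without heterozygous KO replicate 3, and 1 was higher without homozygous KO replicate 2 or any 1 heterozygous library. DESeq2 and the fit over all 10 libraries each called 5 higher. At the gamma locus, used by gamma-delta T cells, all 11 tested genes had a log2 fold change above 0 (median 1.22), and 3 were called higher. The summed gamma level was 90.8, 226 and 137 CPM against 81.6, 59.4 and 72.8 CPM, with 57.3 to 104 CPM in wild type. The gamma calls were 7 without homozygous KO replicate 1, 1 without homozygous KO replicate 2 and 0 without any 1 heterozygous library. Trdv4, a delta V segment, had 5.87, 1.44 and 1.39 CPM against 0.490, 0.262 and 0.403 CPM (log2 fold change 2.91, edgeR adjusted p 0.022).

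B cell genes were among the most reduced. Of 13 tested, 10 were called lower and none higher, with a median log2 fold change of -2.31, and at least 9 were lower in every leave-one-out fit. Ms4a1 (CD20) and the immunoglobulin light chain gene Igkc had at most 3 counts in each homozygous library and were at least 100-fold and 245-fold lower. Pax5, the B lineage factor, had 0.0607, 0.00978 and 0 CPM against 1.09, 0.858 and 0.741 CPM (log2 fold change -5.08, edgeR adjusted p 0.0037). Homozygous KO replicate 1 kept the most Pax5, and every homozygous library was below every heterozygous one. Ighm had a log2 fold change of -0.05 and was not called, and the early genes Ebf1 and Vpreb1 had -0.92 and -0.36 (edgeR adjusted p 0.076 and 0.57). Of 11 immunoglobulin segments and constant genes tested, 9 were called lower.

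Dendritic cell and antigen presentation genes fell as well, 16 of 19 with none higher and a median of -1.62. Siglech, a marker of plasmacytoid dendritic cells, had at most 3 counts in each homozygous library and was at least 90.8-fold lower. Flt3, the receptor that drives dendritic cell development, had 0.234, 0.196 and 0.477 CPM against 3.42, 3.79 and 4.6 CPM (log2 fold change -3.72, edgeR adjusted p 0.00077), and Fscn1 (fascin), a marker of mature dendritic cells, had 3.77, 4.45 and 5.13 CPM against 23.1, 34.1 and 32.3 CPM (log2 fold change -2.76, edgeR adjusted p 0.00021). The class II gene H2-Aa had 12.5, 13 and 25.4 CPM against 36.8, 58.6 and 60.1 CPM (log2 fold change -1.62, edgeR adjusted p 0.013), and Cd74, the invariant chain, 27.5, 29.9 and 58 CPM against 84.2, 125 and 124 CPM. Class II levels are shared with thymic epithelium and B cells. Homozygous KO replicate 3, which had the most of these class II genes in its group, also had the most epithelial RNA (below), and their part was not tested. The lower calls were 10 without heterozygous KO replicate 2 and 6 without heterozygous KO replicate 3.

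Macrophage genes were lower in 9 of 16 cases and higher in 1, with a median of -1.07. The phagocyte receptor Timd4 had 0.113, 0.0685 and 0.0222 CPM against 1.40, 2.06 and 2.66 CPM (log2 fold change -4.85, edgeR adjusted p 0.0011), and the complement gene C1qa 2.73, 0.978 and 1.64 CPM against 7.64, 10.4 and 10.3 CPM (log2 fold change -2.4, edgeR adjusted p 0.0047). Csf1r and Adgre1 (F4/80), which define the lineage, fell by 1.23 and 1.18, and Cd163 was at 0 counts in all 3 homozygous libraries, at least 11-fold lower. Adgre1 lost its call without heterozygous KO replicate 2 (edgeR adjusted p 0.0533) or 3 (0.0621). The gene that rose was Cd14, which neutrophils carry too, with 0.694, 4.67 and 1.98 CPM against 0.090, 0.157 and 0.381 CPM (log2 fold change 3.53, edgeR adjusted p 0.023), and it lost its call without homozygous KO replicate 2 or 3 or heterozygous KO replicate 1 or 2 (edgeR adjusted p 0.0506 to 0.0914). Lyz2, shared by both lineages, was not called (log2 fold change 0.16).

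Neutrophil genes rose: 11 of 13 were called higher and none lower, with a median log2 fold change of 3.96. S100a8, a calcium-binding alarmin, had 9.73, 65.6 and 29 CPM in homozygous KO and 1.57, 0.900 and 1.31 CPM in heterozygous KO (log2 fold change 4.77, SE 0.68, edgeR adjusted p 0.0039). Lcn2, which binds bacterial siderophores, had 4.43, 28.8 and 16.6 CPM against 0.650, 0.398 and 0.719 CPM (log2 fold change 4.80, edgeR adjusted p 0.0037), and lactoferrin, Ltf, 11.7, 63.6 and 35.6 CPM against 2.21, 1.11 and 1.31 CPM (log2 fold change 4.57, edgeR adjusted p 0.0032). S100a9, Ngp and Camp rose by 4.25, 4.03 and 3.87. The summed level of the list was 62.7, 342 and 169 CPM against 10.6 to 15.7 CPM, with 11.8 to 28.1 CPM in wild type, and its order over the homozygous libraries was that of Notch1, Dtx1 and Gzmb. Mpo and Prtn3, which mark the promyelocyte stage, were not called, and Elane and Ly6g had too few counts. The calls were 7 without any 1 heterozygous library, and limma-voom called 2.

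Red cell genes varied within the homozygous group. Slc4a1 (band 3) had 124, 55 and 2.13 CPM in homozygous KO against 0.980, 3.58 and 3.86 CPM in heterozygous KO, so that replicate 3 lay inside the heterozygous range (log2 fold change 4.43, edgeR adjusted p 0.051). The haemoglobin gene Hba-a1 had 508, 561 and 60.4 CPM against 50.5, 150 and 149 CPM and was not called (edgeR adjusted p 0.20). Of 13 erythroid and megakaryocyte genes 2 were called higher, against 5.33% of all genes tested. Klf1, a transcription factor of red cells, was 1 of the 2 (log2 fold change 2.4). The list had 8 higher calls without homozygous KO replicate 3 and none without homozygous KO replicate 2, heterozygous KO replicate 2 or heterozygous KO replicate 3. Wild type had 90.7 to 478 CPM of Hba-a1. Among the 6 tested genes of mast cells, basophils and eosinophils, 1 was called, against 13.5% of all genes tested. It was Cpa3, a mast cell protease also found in early progenitors, with 0.304, 0.235 and 0.366 CPM against 5.68, 4.06 and 4.17 CPM (log2 fold change -3.95, SE 0.26, edgeR adjusted p 0.00021).

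The level of thymic epithelium differed between libraries of 1 group. The summed level of 18 epithelial genes was 189, 205 and 394 CPM in homozygous KO and 193, 363 and 335 CPM in heterozygous KO, with 197 to 290 CPM in wild type. Foxn1, the factor that defines this epithelium, had 3.36, 2.67 and 6.18 CPM against 2.81, 4.97 and 5.48 CPM (log2 fold change -0.13, edgeR adjusted p 0.87). Of these genes 1 was called higher and 2 lower, near the shares over all genes tested (5.33% and 8.2%). Krt5, a keratin of the medulla, had 8.44, 13.5 and 31.3 CPM against 2.36, 2.86 and 3.74 CPM (log2 fold change 2.56, edgeR adjusted p 0.011), a call that did not hold without heterozygous KO replicate 1 (adjusted p in edgeR 0.0544). Aire, which makes medullary cells display tissue antigens, had 0.208, 0.205 and 0.421 CPM against 0.980, 1.39 and 1.71 CPM (log2 fold change -2.30, edgeR adjusted p 0.0079). Cldn4, a claudin on this list, had 4.59, 4.15 and 4.43 CPM against 17.5, 15.5 and 18.5 CPM (log2 fold change -1.98, edgeR adjusted p 0.00016). Within a group its level did not follow the summed epithelial level, and which cells gave its RNA was not tested. For Krt5, Aire and Cldn4 the groups did not overlap.

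Among 14 fibroblast and matrix genes 4 were called higher and 1 lower, with a median of 1.29. The collagen gene Col3a1 had 4.48, 14 and 8.27 CPM against 2.23, 2.46 and 2.93 CPM (log2 fold change 1.80, edgeR adjusted p 0.019), and Igf1 fell by 1.33. The higher calls were 7 without homozygous KO replicate 1, 2 without homozygous KO replicate 2 or 3 and 0 without any 1 heterozygous library. Of 12 endothelial genes 1 was called higher (Robo4) and 1 lower (Eng, which fell by 0.90), near the shares over all genes tested (5.33% and 8.2%). Highest in homozygous KO replicate 2 were 9 of the 12, for instance Cdh5 at 1.53, 5.42 and 1.17 CPM against 1.44, 1.74 and 1.59 CPM. The call of Robo4 was lost without any 1 library except homozygous KO replicate 1 (edgeR adjusted p 0.0605 to 0.135).

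Interferon-stimulated genes, which cells switch on in response to interferons and which the thymus expresses at a resting level, were mostly lower. Of 16 tested, 9 were called lower and 1 higher, with a median log2 fold change of -0.88. Ifit1, an RNA-binding effector, had 2.55, 2.50 and 3.14 CPM in homozygous KO against 13.2, 11.8 and 11.6 CPM in heterozygous KO (log2 fold change -2.17, SE 0.14, edgeR adjusted p 0.00019). Mx1, an antiviral GTPase, had 0.694, 0.900 and 1.06 CPM against 3.34, 2.44 and 3.21 CPM (log2 fold change -1.77, edgeR adjusted p 0.0034), and Irf7, the factor that amplifies the response, 10.9, 13.8 and 14.1 CPM against 26.8, 26.9 and 24.9 CPM (log2 fold change -1.02, edgeR adjusted p 0.0013). For these 3 genes every homozygous library was below every heterozygous one. Bst2 (tetherin) went the other way, with 26.4, 29.4 and 28.2 CPM against 15.5, 17.4 and 16.5 CPM (log2 fold change 0.76, edgeR adjusted p 0.0014). The call of Isg15, with a log2 fold change of -0.73, was lost without heterozygous KO replicate 2 or 3 (edgeR adjusted p 0.0729 and 0.0746).

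The interferon-inducible p200 family of DNA sensors, noticed after the values were seen, was lower throughout: all 11 tested genes were called, with log2 fold changes of -3.71 to -0.64 and a median of -2.15. Their summed level was 71.6, 78.2 and 74.4 CPM in homozygous KO, 201, 185 and 200 CPM in heterozygous KO and 173 to 232 CPM in wild type, and 9 to 11 were called in the leave-one-out fits. Trim30a, an interferon-inducible member of the TRIM family, was among the genes with the smallest p, at 14.4, 16.1 and 16.3 CPM against 48.6, 46.8 and 48.4 CPM (log2 fold change -1.63, SE 0.07, edgeR adjusted p 6.2e-05). Dendritic cells and macrophages, whose markers were lower in the same libraries, express many of these genes, and their part in the falls was not tested.

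The windows of 250 bases before the first start listed for each gene were searched on both strands. The motif was 2 copies of GAAA with any 2 bases between them, the core of the element that interferon-activated factors bind (TTTC in place of GAAA on the other strand). It was present in 2.71% of the 11764 windows of tested genes, in 6.2% (68 of 1096) of those called lower, in 2.07% (15 of 724) of those called higher and in 2.37% of those not called. Of the interferon-stimulated list 8 of 12 windows held it, Bst2 included, and of the p200 family 8 of 10. Windows of 3 called genes are printed from RefSeq (GRCm38.p6), 5′ to 3′ on the gene's strand, with each match in capitals: Ifit1 (chr19:34640639-34640888, plus strand) for the largest fall of the list, Trim30a (chr7:104465194-104465443, minus strand) for the smallest p, and Ifi205 (chr1:174031756-174032005, minus strand) for the p200 family.
Ifit1: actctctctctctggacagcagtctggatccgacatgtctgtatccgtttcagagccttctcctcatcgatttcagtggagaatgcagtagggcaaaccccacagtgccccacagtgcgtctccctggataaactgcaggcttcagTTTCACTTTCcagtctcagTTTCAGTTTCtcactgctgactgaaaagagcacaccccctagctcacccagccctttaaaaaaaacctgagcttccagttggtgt
Trim30a: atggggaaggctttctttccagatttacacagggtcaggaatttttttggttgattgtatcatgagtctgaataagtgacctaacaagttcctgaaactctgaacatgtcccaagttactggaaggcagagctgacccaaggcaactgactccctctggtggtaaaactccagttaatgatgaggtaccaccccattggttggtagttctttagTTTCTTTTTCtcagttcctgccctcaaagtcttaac
Ifi205: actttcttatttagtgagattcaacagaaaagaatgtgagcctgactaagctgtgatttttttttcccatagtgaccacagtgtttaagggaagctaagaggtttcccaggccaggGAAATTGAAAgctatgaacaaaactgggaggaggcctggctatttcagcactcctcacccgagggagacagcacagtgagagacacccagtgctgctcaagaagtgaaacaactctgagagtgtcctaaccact
Ifit1 held 2 matches, from 104 to 95 and from 85 to 76 bases before the start, Trim30a held 1 from 36 to 27 bases before it, and Ifi205 held 1 from 134 to 125 bases before it. The E-box CAGCTG, a site form of the E proteins of early T cells, was present in 12.3% of all windows, 13.8% of those called lower and 11.7% of those called higher, and CACCTG in 16.2%, 18% and 14%. These shares are descriptions of the windows and say nothing of binding.

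Proliferation genes leaned upward without many calls. Of 15 genes of mitosis 2 were called higher (5.33% over all genes tested), Birc5 (survivin) and Cdc20, and the median was 0.37. Of 18 genes of DNA replication none was called by edgeR and 3 were called higher by DESeq2. Their median was 0.25, and 9 of the 18 had an unadjusted p under 0.05. Mki67, a protein of dividing cells, had 3630, 2710 and 3070 CPM in homozygous KO against 2810, 2340 and 2100 CPM in heterozygous KO (log2 fold change 0.37, edgeR adjusted p 0.13). Replicate 1 was the highest homozygous library for all of the genes in both lists. The groups did not overlap at 13 of the 18 replication genes and 8 of the 15 mitosis genes, against 33.5% of all genes. Without homozygous KO replicate 2 there were 8 mitosis and 4 replication calls, all higher. Without homozygous KO replicate 3 or any 1 heterozygous library there were 0 mitosis calls.

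Linker histones diverged. Against the fall of H1fx, the replication-dependent Hist1h1c had 2980, 1980 and 2070 CPM in homozygous KO and 1630, 1030 and 1070 CPM in heterozygous KO (log2 fold change 0.91, edgeR adjusted p 0.029), and Hist1h1d had 2660, 2020 and 1840 CPM against 1430, 726 and 801 CPM (log2 fold change 1.14, edgeR adjusted p 0.026). Replicate 1 was the highest library in both groups. The other 3 tested, Hist1h1a, Hist1h1b and Hist1h1e, had log2 fold changes of 0.51 to 0.84 and were not called. Neither call held without heterozygous KO replicate 2 (in edgeR, adjusted p 0.101 and 0.0817) or 3 (0.116 and 0.105), that of Hist1h1c also without homozygous KO replicate 3 (0.0542) and that of Hist1h1d without homozygous KO replicate 2 (0.0511).

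Imprinted growth genes gave 4 higher and 2 lower calls of 12, against 5.33% higher and 8.2% lower over all genes tested. Igf2, a fetal growth factor, had 7.53, 31.4 and 37.9 CPM against 1.73, 2.50 and 2.52 CPM (log2 fold change 3.50, SE 0.55, edgeR adjusted p 0.0062), and its neighbour H19, a non-coding RNA, 102, 357 and 376 CPM against 89.1, 75.7 and 97.5 CPM (log2 fold change 1.66, edgeR adjusted p 0.039). Igf2 shares exonic sequence with other annotated genes on both strands. Igf2r, the receptor that clears IGF2, rose by 0.36 and Peg3 by 1.31, while Plagl1, a zinc finger factor, fell by 2.38 and Cdkn1c (p57) by 0.51. For Igf2 and H19 homozygous KO replicate 1 was the lowest of its group, and the call of H19 was lost without any 1 library except that one (edgeR adjusted p 0.097 to 0.124). The 4 higher calls were 2 without heterozygous KO replicate 2 and 1 without heterozygous KO replicate 3.

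The metabolic and stress lists had medians near 0, at -0.06 for the ATF4 response and 0.12 for hypoxia and glycolysis. Of all genes tested, 5.33% were called higher and 8.2% lower, and the called shares of these 2 lists were above both. No gene of cholesterol synthesis was called by edgeR among 13 tested or by DESeq2 or limma-voom (median -0.02), and 1 had an unadjusted p under 0.05. Of 15 genes of the ATF4 amino acid response 1 was called higher (Ddit4, by 0.75) and 2 lower: the cystine transporter Slc7a11 had 21.2, 22 and 52.1 CPM against 99.5, 111 and 117 CPM (log2 fold change -1.79, edgeR adjusted p 0.012), and Chac1 was lower by 2.29. Chac1 had 0.121, 0.0685 and 0.0776 CPM in homozygous KO, inside the wild-type range of 0 to 0.266 CPM. Its heterozygous libraries, at 0.69, 0.304 and 0.338 CPM, lay above that range. Of 15 hypoxia and glycolysis genes 2 rose and 2 fell. Pdk1, a kinase that diverts pyruvate from mitochondria, had 53.8, 56.7 and 52.9 CPM against 84.9, 90.9 and 89.9 CPM (log2 fold change -0.71, SE 0.06, edgeR adjusted p 0.00054), and Egln3, a prolyl hydroxylase, rose by 0.53 (edgeR adjusted p 0.004). Vegfa rose by 1.07 and P4ha1 fell by 0.39. Vegfa lost its call without any 1 library except homozygous KO replicate 1 (edgeR adjusted p 0.0947 to 0.136), and P4ha1 without homozygous KO replicate 3 or any 1 heterozygous library (edgeR adjusted p 0.0921 to 0.13). In the list of E proteins, Id proteins and the TAL1-LMO complex 1 of 12 was called, Lmo1, which fell by 1.73 from a low level (0.340, 0.304 and 0.349 CPM in heterozygous KO). The median of that list was 0.16, with 9 of 12 above 0. Its higher calls were 0 to 2 with 1 library left out and 0 to 3 over all alternatives. Tcf3 and Tcf12, the E proteins of thymocytes, were at 0.08 and 0.13 on the log2 scale (adjusted p 0.46 and 0.35 in edgeR). These small counts moved with the libraries: Lmo1 was not called without any 1 library except homozygous KO replicate 1, nor Ddit4 without homozygous KO replicate 3 or any 1 heterozygous library, nor Chac1 without homozygous KO replicate 2 or 3 or heterozygous KO replicate 1.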

How the data were processed

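The authors deposited 1 table of raw counts per gene with a column for each animal. Per the labels, RNA was extracted from thymus, depleted of ribosomal RNA and made into stranded libraries, and the submitters' processing notes name STAR 2.4.1d, HTSeq 0.6.1p1 and the builds mm9 and NCBIM37. The annotation release and the strand setting of the counting are not given in the sources used here. The gene identifiers were matched to symbols with the mouse annotation tables at hand, and promoter windows came from RefSeq on GRCm38.p6. Segments of the receptor loci were ordered by a later annotation, and no coordinates were carried between builds. Exon overlap with another annotated gene is stated for some named genes only, and others have it too, among them Olfm4, Peli2, H19, Lck and Lat.

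Only the 3 homozygous KO and 3 heterozygous KO libraries entered the main comparison. Genes with too few counts were removed with edgeR's filterByExpr (18858 of 35375 features kept), libraries were scaled by TMM, and edgeR 4.0.16 (R 4.3.3) fitted the quasi-likelihood test, with Benjamini-Hochberg adjustment over all genes tested and a threshold of 0.05. The SE is that of the fitted log2 fold change. A gene with at most 3 counts in each library of a group was given as a bound, computed against 3 counts per library, which is 0.026 to 0.0333 CPM in these 6 libraries. These bounds cover counting error only. Within groups log2 CPM had a median SD of 0.111 among homozygous and 0.083 among heterozygous libraries. The code was tested on simulated data.

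The genes named were Usp7, the 12 largest rises and 12 largest falls among calls with a mean log2 CPM of at least 2, no overlap of the groups and a symbol that is not a predicted gene, clone or pseudogene name, the 8 smallest p-values among such genes, and in each of 28 lists the first 2 genes, the 2 largest called rises and the 2 largest called falls, with members needed to read a small count. Other genes with values, such as Trp53, Cd4 and the CD3 chains, and the receptor segments, histones and other families were chosen after their values were seen. The comparison, its members and the lists were chosen with earlier results of these data known. Alternatives were RLE factors, library totals, DESeq2 1.42.0, limma-voom (limma 3.58.1), no filter, each library left out, a replicate block, a term for the run of animal numbers, the animals numbered 56 to 63 alone, all 10 libraries in 1 fit, and no genes of X and Y. A few list members are counted but not reported here by name.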

Additional observations from a re-analysis of the deposited data

Results flagged for a closer look

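One wild-type library stood apart from the other 3 for Lin28b, with 3.45 CPM against 0.375 to 0.746 CPM. Its gap to the nearest library was 0.879 of the range of the 4, above the limit of Dixon's test at 95%. This was 1 of 32 genes examined in this way in wild type, and chance flags about 1 in 20 such groups. The library with 3.45 CPM was still below the lowest homozygous KO library, at 8.88 CPM. The groups of 3 libraries are too small for this test.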

How the results depend on the processing

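The called genes among those named kept their direction throughout: 106 of 106 in all 16 alternatives, and 67 kept the call in all of them. Leaving out 1 library gave 1143 to 2972 calls, 345 to 1347 higher and 798 to 1625 lower, the fewest without heterozygous KO replicate 3. The higher calls were 1565 with DESeq2 and 1549 with the run of animal numbers as a term. With library totals alone, which moved the median of all genes by -0.08, 25.9% of 2599 calls were higher, against 39.4% with TMM. The cause of these shifts was not tested. Usp7 passed the threshold with library totals (-0.49, adjusted p 0.0445), DESeq2 (-0.42, 0.0102), no filter (-0.41, 0.0482), the run term (-0.43, 0.006), the animals 56 to 63 (-0.33, 0.00464) and all 10 libraries in the fit (-0.41, 0.0288). Leaving out 1 library gave -0.50 to -0.28, past the threshold without homozygous KO replicate 1 (-0.28, 0.026).

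With the replicate number as a block, 2530 genes were called and Usp7 was at -0.43 (adjusted p 0.0184). Under it 10 of 12 immediate-early genes and 4 alpha J segments were called lower. Deviations of same-numbered libraries from their group means correlated at 0.234, 0.114 and 0.0107 for replicates 1, 2 and 3. Homozygous KO replicate 2 correlated more with heterozygous KO replicate 3 (0.28), which is of the same run of animal numbers. Replicate 1 of each group is of the other run, and between the runs the correlations were -0.264 to -0.0318. The deviations of a group cancel out, so positive correlations force negative ones elsewhere, and these values are not independent. The labels do not say that same-numbered libraries were paired, and what libraries of a run share was not tested.

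Genes near 0 that were not called changed sign. Il2ra, at 0.07, went to 0 with library totals, -0.15 with limma-voom, -0.14 with the block, -0.09 with the run term, and -0.51 to 0.46 with 1 library left out (below 0 without homozygous KO replicate 2 or heterozygous KO replicate 2). Hk2, at 0.01, went to -0.06 with library totals, -0.01 with limma-voom or the block, and -0.2 to 0.15 with 1 library left out. With 1 library left out, Klrd1 ranged from -0.37 to 0.08, Foxn1 from -0.55 to 0.11, Cdh5 from -0.23 to 1.12 and Atf4 from -0.01 to 0.3. Depth limits genes near the floor of 3 counts, whose fold changes are bounds.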

Other observations

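Further gene families outside the lists, chosen after their values were seen and described with no test of the family, also differed between the knockouts. Of 45 replication-dependent core histone genes, which package newly made DNA, 29 were called higher and none lower (64.4% called against 13.5% of all genes), with a median log2 fold change of 0.91. Their summed level was 28200, 19900 and 20200 CPM in homozygous KO and 15700, 11000 and 11000 CPM in heterozygous KO, with 9420 to 14300 CPM in wild type. Replicate 1 was the highest of both groups, and the lowest homozygous library was above the highest heterozygous one. The higher calls were 7 without heterozygous KO replicate 2 and 5 without heterozygous KO replicate 3.

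Of 20 MHC class I genes, which present peptides to CD8 T cells, 11 were called lower and 1 higher, with a median of -0.70, and the summed level was 581, 647 and 530 CPM against 781, 816 and 868 CPM. Wild type had 775 to 859 CPM. The lower calls were 7 without homozygous KO replicate 3 or heterozygous KO replicate 2 and 6 without heterozygous KO replicate 3. Of 8 GIMAP genes, GTPases that support lymphocyte survival, 5 were called lower with a median of -0.78, and the summed level was 223, 246 and 202 CPM against 335, 350 and 386 CPM. In both families every homozygous library was below every heterozygous one, and without heterozygous KO replicate 3 there were 3 GIMAP calls. By contrast, 1 of 74 cytosolic ribosomal protein genes was called (1.35%), with a median of -0.04.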
